A study of Mus musculus with 6 samples.

Results

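The genes described here are 10 members of the epidermal growth factor (EGF) system, 7 ligands (*Nrg1*, *Ereg*, *Areg*, *Hbegf*, *Tgfa*, *Btc* and *Egf*) and 3 ERBB receptors (*Egfr*, *Erbb2* and *Erbb3*). They were chosen by name, and all 10 were found among the 49548 genes of the deposited table. Their levels were measured by 3′ mRNA sequencing in 6 libraries of cells sorted from colonic adenomas to keep mesenchymal cells. The adenomas came from *Col6a1*-Cre, Rosa26-mTmG mice on a C57/BL6 background. These mice were 8 to 10 weeks old when the carcinogen azoxymethane (AOM) was injected. They then received cycles of dextran sodium sulfate (DSS) in the drinking water. In this reporter strain all cells carry membrane Tomato until Cre replaces it with GFP, so that GFP marks cells in which the *Col6a1* promoter has driven Cre at any time. Both groups therefore came from the same genotype and treatment. After removal of cells with CD45, EpCAM, CD31 or Ter119, 3 libraries were made from GFP+ cells (Col6a1+ CAFs) and 3 from Tomato+ cells (Col6a1- CAFs). The paper names 3 samples in total, each a pool of tumors from 5 to 6 mice. Whether a GFP+ and a Tomato+ library shared a pool is not stated. The Cre line acts in several kinds of mesenchymal cell, telocytes and pericytes among them, so neither fraction is 1 cell type.

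EGF family ligands are made as membrane proteins, and most act after metalloproteases such as ADAM17 and ADAM10 release them from the cell surface. EGF, TGFα, amphiregulin (*Areg*), epiregulin (*Ereg*), betacellulin (*Btc*) and HB-EGF (*Hbegf*) bind EGFR, and betacellulin, HB-EGF and epiregulin also bind ERBB4, whereas neuregulin 1 (*Nrg1*) binds ERBB3 and ERBB4. ERBB2 has no known ligand and ERBB3 has little kinase activity of its own, so both signal as partners of other receptors. In the intestine these ligands are known to reach the epithelium from stromal, immune and epithelial cells, and they support epithelial proliferation and repair after injury.

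The authors' normalized counts summed to between 3039152 and 3425249 per library, a sum that after scaling does not give the number of reads. Genes with any count numbered 14530 to 20511, with the fewest in Col6a1+ replicate 1 and at least 18770 in each of the others. A gene at 0 in 1 library may still have had an expected count of up to about 3. This bound covers counting error only, because molecular identifiers are not named in the sources used here. The labels were checked with *Col6a1* itself, which had 861, 1287 and 1941 normalized counts in Col6a1+ CAFs and 182, 321 and 102 in Col6a1- CAFs (log2 fold change 2.82, limma adjusted p = 0.00613). All 9 pan-fibroblast markers (*Col1a1*, *Col1a2* and others) were detected in both subsets, with 5 of 9 higher in Col6a1+ CAFs in the test and summed levels of 42578 to 47588 against 9031 to 16437 normalized counts. All 8 pericyte markers were higher in Col6a1+ CAFs (sums of 41577 to 90981 against 1147 to 2141), as were 4 of 8 telocyte markers (3352 to 5496 against 1443 to 1523), while 2 of 7 trophocyte markers were lower (244 to 511 against 1126 to 1268).

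Markers of cells other than fibroblasts and pericytes were also present, among them the epithelial cells that the sort excluded. Of 18 epithelial markers, 12 were lower in Col6a1+ CAFs and none was higher. Their summed levels were 6294 to 7239 normalized counts in Col6a1+ CAFs and 22026 to 38674 in Col6a1- CAFs. In each Col6a1- library this sum (22026, 38674 and 27432) exceeded that of the 9 pan-fibroblast markers (16437, 16059 and 9031). In Col6a1+ CAFs the pan-fibroblast sums, 42578 to 47588, were the larger. *Epcam*, the gene of the sorted-out epithelial antigen, had 1074, 884 and 615 normalized counts in Col6a1+ CAFs and 3107, 4129 and 3730 in Col6a1- CAFs, and *Cdh1* (E-cadherin) had 2344 to 2999 against 10493 to 15452. Of the 17 rows of immune markers, 2 were lower in Col6a1+ CAFs, the neutrophil genes *S100a8* and *S100a9*, and the sums were 166 to 345 against 726 to 1279. *Ptprc*, which encodes CD45, had at most 2 normalized counts in Col6a1+ CAFs and 3 to 8 in Col6a1- CAFs, and *Cd3e* and *Cd79a* were at 0 in 5 of the 6 libraries each. Of 9 endothelial markers, *Esam* and *Tie1* were called, higher in Col6a1+ CAFs, and the other 7 had log2 fold changes below 0 (list median -1.07). *Esam* (943 to 1125 against 38 to 93 normalized counts) made up most of the sums of 1100 to 1444 against 189 to 364. The defining marker *Pecam1*, which encodes CD31, had 0, 21 and 27 normalized counts in Col6a1+ CAFs and 13, 64 and 44 in Col6a1- CAFs, and *Cdh5* 10, 4 and 9 against 39, 24 and 24. Of 8 glial markers, only *Fabp7* was called, higher in Col6a1+ CAFs (sums of 155 to 440 against 29 to 77), and *Sox10* was at 0 in all Col6a1- CAF libraries. Of the 7 markers of interstitial cells of Cajal and smooth muscle, *Des*, *Myh11*, *Ano1* and *Actg2* were higher in Col6a1+ CAFs (2467 to 3760 against 252 to 564). *Kit*, the defining marker of interstitial cells of Cajal, went the other way, with 0, 0 and 5 normalized counts against 15, 12 and 14, and did not pass (limma adjusted p = 0.160). Of 5 erythroid markers tested none was called (110 to 1713 against 281 to 482). Beside these marker counts, 4.62% of all genes tested were called, and 8.82% of those averaging 10 or more normalized counts. The 2 immune calls and the single glial call are not far above these shares. With same-numbered libraries as a block no gene of all tested was called (smallest limma adjusted p 0.0612), so none of these marker calls was kept. Over the genes averaging 10 or more normalized counts the blocked fit called 14 epithelial, 8 pericyte and 6 pan-fibroblast markers. Leaving out 1 library left 0 to 7 epithelial, 4 to 8 pericyte and 0 to 3 pan-fibroblast calls, and each of these lowest counts was found without Col6a1- replicate 1. In these bulk libraries, fewer cells of a type and less RNA per cell cannot be told apart.

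**Figure D1:**
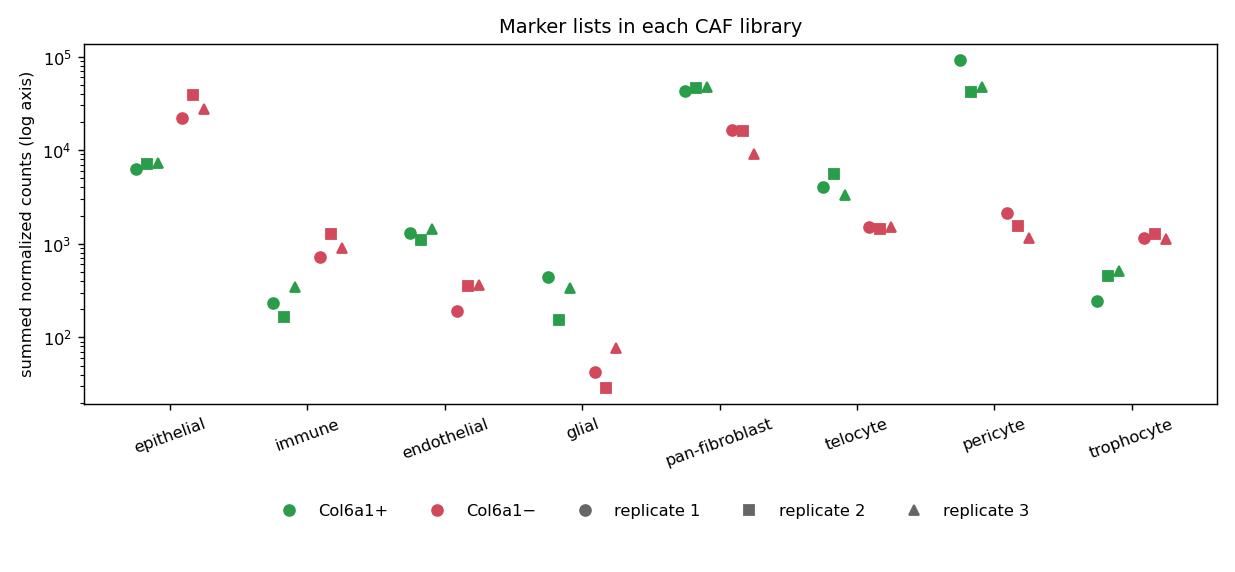
Summed normalized counts of 8 marker lists (log axis) in the 3 Col6a1+ and the 3 Col6a1- CAF libraries, 1 symbol per library. The epithelial sums are 22026 to 38674 in Col6a1- CAFs and 6294 to 7239 in Col6a1+ CAFs, and the pan-fibroblast and pericyte sums are higher in every Col6a1+ library.

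Of the 10 genes, 1 was called at an adjusted p under 0.05 between the subsets, *Nrg1*, which was higher in Col6a1+ CAFs. This test has no block, and with same-numbered libraries as a block over all genes tested no gene was called. Without the block, 2.66% of all 26402 genes tested were called higher and 1.96% lower, 4.62% in either direction. Of the 13515 genes averaging 10 or more normalized counts, 8.82% were called. A single call among 10 genes is near this background share. Log2 fold changes are given as Col6a1+ minus Col6a1- CAFs, on the scale of log2 of the normalized count plus 1. Adding 1 pulls the changes of genes with few counts toward 0, while a single library near 0 can make the difference of log2 means larger than the ratio of mean counts, as it did for *Tgfa* and *Erbb2*. The groups were free of overlap for 5 of the 10 genes, *Nrg1* and *Ereg* with higher and *Tgfa*, *Erbb2* and *Erbb3* with lower levels in Col6a1+ CAFs, as they were for 19.5% of all genes tested (7.91% with higher and 11.6% with lower levels) and for 31.7% of the 13515 genes averaging 10 or more normalized counts. All 10 genes passed the low-count filter (a total of 1 or more in the 6 libraries), and 9 of them, all but *Egf*, averaged 10 or more. The median log2 fold change of the 10 genes was -0.84 and that of all genes tested was -0.27.

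**Figure D2:**
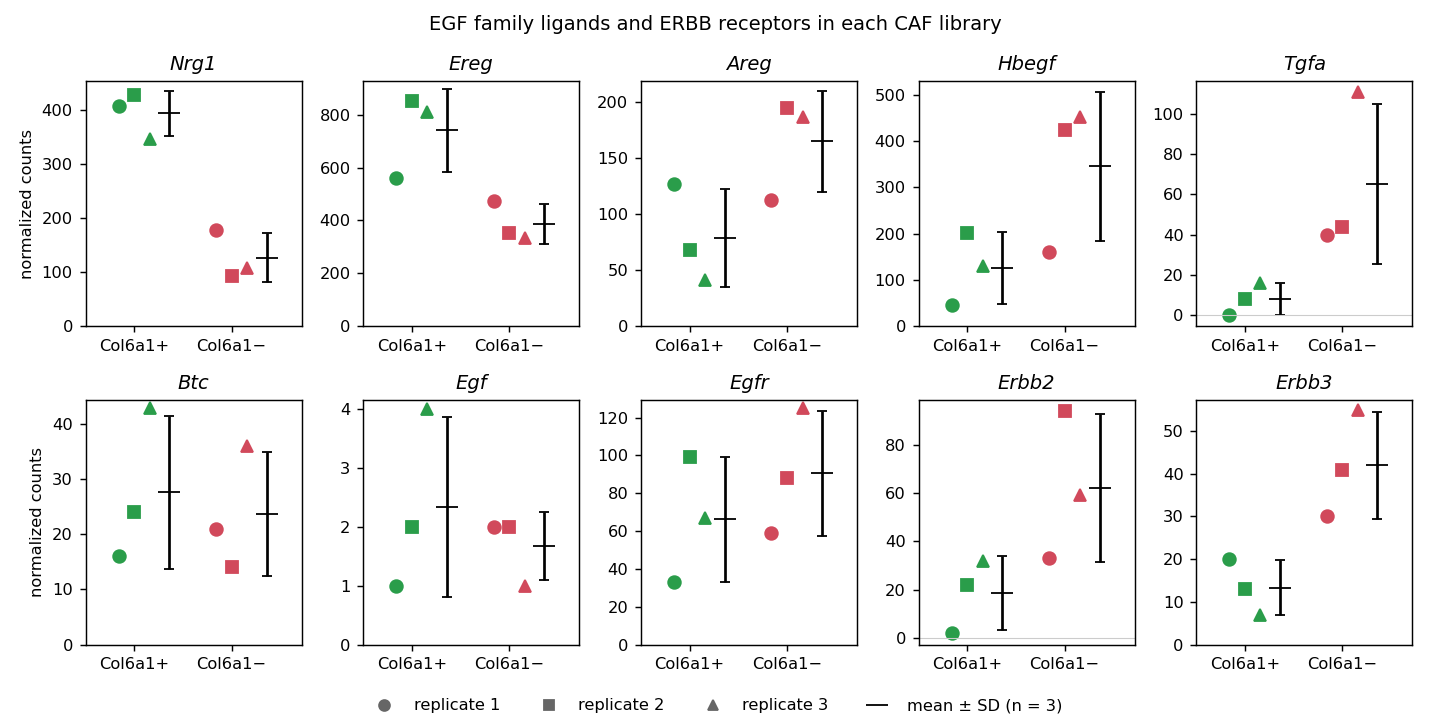
Normalized counts (linear axes, each with its own scale) of the 10 genes in each library, with symbols for the replicates and the mean and SD of 3 libraries beside them. *Nrg1* has 346 to 427 normalized counts in Col6a1+ CAFs and 93 to 178 in Col6a1- CAFs, and *Tgfa* 0 to 16 against 40 to 111.

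*Nrg1* (ENSMUSG00000062991, chromosome 8 from 31814551 to 32884029 of mm10, minus strand) encodes neuregulin 1, the ligand of ERBB3 and ERBB4. It had 406, 427 and 346 normalized counts in Col6a1+ CAFs and 178, 93 and 107 in Col6a1- CAFs. The lowest Col6a1+ library lay well above the highest Col6a1- library, and the means were 393 ± 42.0 and 126 ± 45.6 (SD, n = 3 each), 3.12 times higher in Col6a1+ CAFs. The log2 fold change was 1.69 (standard error, SE, 0.34, 95% interval 0.93 to 2.44, limma adjusted p = 0.0204). When same-numbered libraries were treated as a block the adjusted p was 0.0911, in a fit that called no gene at all, and it lay between 0.0621 and 0.144 when any 1 library was left out, while the log2 fold change then stayed between 1.50 and 1.96. Between the subsets *Nrg1* had the same direction as several marker lists. The median log2 fold change was 1.81 for pan-fibroblast, 1.61 for telocyte and 5.52 for pericyte markers. It was 2.50 for the markers of interstitial cells of Cajal and smooth muscle. Ratios were computed for the pan-fibroblast and telocyte lists, and not for the pericyte list. Per 1000 summed pan-fibroblast marker counts it had 9.54, 9.20 and 7.27 in Col6a1+ CAFs and 10.8, 5.79 and 11.8 in Col6a1- CAFs, so that the groups overlapped on this scale. The ratio of *Nrg1* to *Pdgfra*, the gene of the receptor that marks telocytes when high, was 0.341 to 0.428 in Col6a1+ CAFs and 0.399 to 0.527 in Col6a1- CAFs, and per 1000 summed telocyte marker counts *Nrg1* had 77.7 to 103 against 64.4 to 117. These ratios were chosen after the values were seen, and the part of the number of fibroblasts, pericytes or other cells in the level of *Nrg1* was not tested.

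*Ereg* (ENSMUSG00000029377, chromosome 5 from 91074622 to 91093646, plus strand) encodes epiregulin, a ligand of EGFR and ERBB4. Its levels were 562, 851 and 812 normalized counts in Col6a1+ CAFs and 472, 352 and 332 in Col6a1- CAFs. The groups did not overlap, although Col6a1+ replicate 1 and Col6a1- replicate 1 lay close together. The means were 742 ± 157 and 385 ± 75.7 (SD, n = 3 each). The log2 difference of 0.94 (95% interval 0.28 to 1.59) did not pass (SE 0.30, limma adjusted p = 0.117). Relative to markers, its order depended on the list. Per 1000 summed pan-fibroblast counts *Ereg* had 13.2, 18.3 and 17.1 in Col6a1+ CAFs and 28.7, 21.9 and 36.8 in Col6a1- CAFs. Per 1000 telocyte counts the groups overlapped at 140 to 242 against 221 to 310, and per 1000 epithelial counts *Ereg* was higher in Col6a1+ CAFs at 89.3 to 120 against 9.10 to 21.4. *Gm42532*, an antisense gene with 5 to 30 normalized counts, overlaps *Ereg*, and whether the counting used the strand is not given in the sources used here, so reads of the pair cannot be told apart.

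*Ereg* and *Areg* are neighbours. The 4 ligand genes *Epgn*, *Ereg*, *Areg* and *Btc* lie in this order on chromosome 5, with 39.4 kb between *Epgn* and *Ereg*, 46.0 kb between *Ereg* and *Areg*, no annotated gene in either gap, and 209 kb between *Areg* and *Btc*. *Areg* (ENSMUSG00000029378, chromosome 5 from 91139599 to 91148432, plus strand) encodes amphiregulin, an EGFR ligand linked to tissue repair. It had 127, 68 and 41 normalized counts in Col6a1+ CAFs and 113, 195 and 187 in Col6a1- CAFs. Col6a1+ replicate 1 lay above Col6a1- replicate 1, and the groups overlapped. The means were 78.7 ± 44.0 and 165 ± 45.2 (SD, n = 3 each), and the change of -1.17 on the log2 scale (95% interval -2.21 to -0.12) did not pass (SE 0.47, limma adjusted p = 0.240). The ratio of *Ereg* to *Areg* counts, which does not depend on the scaling between libraries, was 4.43, 12.5 and 19.8 in Col6a1+ CAFs and 4.18, 1.81 and 1.78 in Col6a1- CAFs. The ratio, chosen after the values were seen, was higher in each Col6a1+ library than in any Col6a1- library, by little for replicate 1 and by much for replicates 2 and 3.

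Promoters from RefSeq (GRCm38.p6, the build of mm10) were found for 6 of the 10 genes, as windows of 250 bases before to 50 bases after the start. Those of *Areg* and *Tgfa* are shown, EGFR ligands with lower mean levels in Col6a1+ CAFs that did not pass the test. They were chosen with these levels and the motif matches known, and a role of any motif in the levels was not tested. The *Areg* window is chr5:91139349-91139648 on the plus strand and the *Tgfa* window chr6:86194972-86195271 on the plus strand, both written 5′ to 3′, with matches to the motifs searched in capitals.
Areg: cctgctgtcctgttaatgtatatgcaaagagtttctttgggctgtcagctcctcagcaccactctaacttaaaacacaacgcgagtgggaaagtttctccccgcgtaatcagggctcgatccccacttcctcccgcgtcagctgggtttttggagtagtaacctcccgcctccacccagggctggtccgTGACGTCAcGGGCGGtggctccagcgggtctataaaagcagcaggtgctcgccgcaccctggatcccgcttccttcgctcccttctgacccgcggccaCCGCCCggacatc
Tgfa: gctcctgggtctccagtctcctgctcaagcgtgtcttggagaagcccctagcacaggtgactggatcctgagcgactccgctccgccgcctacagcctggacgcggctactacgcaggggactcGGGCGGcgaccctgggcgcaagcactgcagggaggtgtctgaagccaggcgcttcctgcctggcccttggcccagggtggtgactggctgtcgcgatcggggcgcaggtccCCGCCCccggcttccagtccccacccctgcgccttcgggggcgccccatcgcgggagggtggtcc
On both strands, the cAMP response element TGACGTCA was found in 1.79% of 32851 promoter windows of this length, the GC box GGGCGG in 35.7% and the AP-1 motif TGANTCA in 7.81%. The *Areg* window holds 1 cAMP response element, 61 bases before the start, followed by a GC box, and a second GC box after the start. The *Tgfa* window holds 2 GC boxes, 126 and 15 bases before the start, and neither of the other motifs. No window of the 6 genes held an AP-1 match. A match describes the letters of the window, and binding was not measured in these data.

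*Hbegf* (ENSMUSG00000024486, chromosome 18 from 36504929 to 36515805, minus strand) encodes HB-EGF, a heparin-binding ligand of EGFR and ERBB4. It had 45, 202 and 130 normalized counts in Col6a1+ CAFs and 160, 424 and 453 in Col6a1- CAFs. The overlap came from Col6a1+ replicate 2, which lay above Col6a1- replicate 1, whereas in each of the 3 same-numbered pairs the Col6a1+ library was the lower. The means were 126 ± 78.6 and 346 ± 161 (SD, n = 3 each), with a log2 fold change of -1.56 and a 95% interval of -2.83 to -0.28 (SE 0.58, limma adjusted p = 0.190). *Hbegf* was called lower with the replicate number as a block over the genes averaging 10 or more (limma adjusted p = 0.0155), but not with the block over all genes tested (0.0974). Leaving out 1 library gave log2 fold changes of -2.04 to -0.95, the nearest to 0 without Col6a1+ replicate 1.

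*Tgfa* (ENSMUSG00000029999, chromosome 6 from 86195223 to 86275719, plus strand) encodes TGFα, the EGFR ligand best known from epithelia. It had the largest log2 fold change of the 10 genes in size. Its levels were 0, 8 and 16 normalized counts in Col6a1+ CAFs and 40, 44 and 111 in Col6a1- CAFs, so that every Col6a1+ library lay below every Col6a1- library. The means were 8.0 ± 8.0 and 65.0 ± 39.9 (SD, n = 3 each), 8.13 times higher in Col6a1- CAFs, and the 95% interval of the log2 fold change of -3.47 ran from -5.81 to -1.12 (SE 1.06, limma adjusted p = 0.103). It was called with the block over the genes averaging 10 or more (limma adjusted p = 0.0333), but not over all genes tested (0.144). The log2 fold change was -2.26 when Col6a1+ replicate 1, the library at 0, was left out. It was -4.30 when Col6a1+ replicate 3 was left out.

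*Btc* and *Egf* showed no difference that these libraries could resolve. *Btc* (ENSMUSG00000082361, chromosome 5 from 91357261 to 91402994, minus strand), the gene of betacellulin, had 16, 24 and 43 normalized counts in Col6a1+ CAFs and 21, 14 and 36 in Col6a1- CAFs. The 95% interval of its log2 fold change of 0.20 ran from -1.29 to 1.70, which leaves room for changes of more than 2-fold in either direction. *Egf* (ENSMUSG00000028017, chromosome 3 from 129677565 to 129755316, minus strand) had 1 to 4 normalized counts in every library. This is near the expected count of up to about 3 that a level of 0 allows, and a difference was not detectable at such counts. Summed over the 6 EGFR ligands *Ereg*, *Areg*, *Hbegf*, *Tgfa*, *Btc* and *Egf*, the libraries held 751, 1155 and 1046 normalized counts in Col6a1+ CAFs and 808, 1031 and 1120 in Col6a1- CAFs. The sums of the subsets overlapped.

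**Figure D3:**
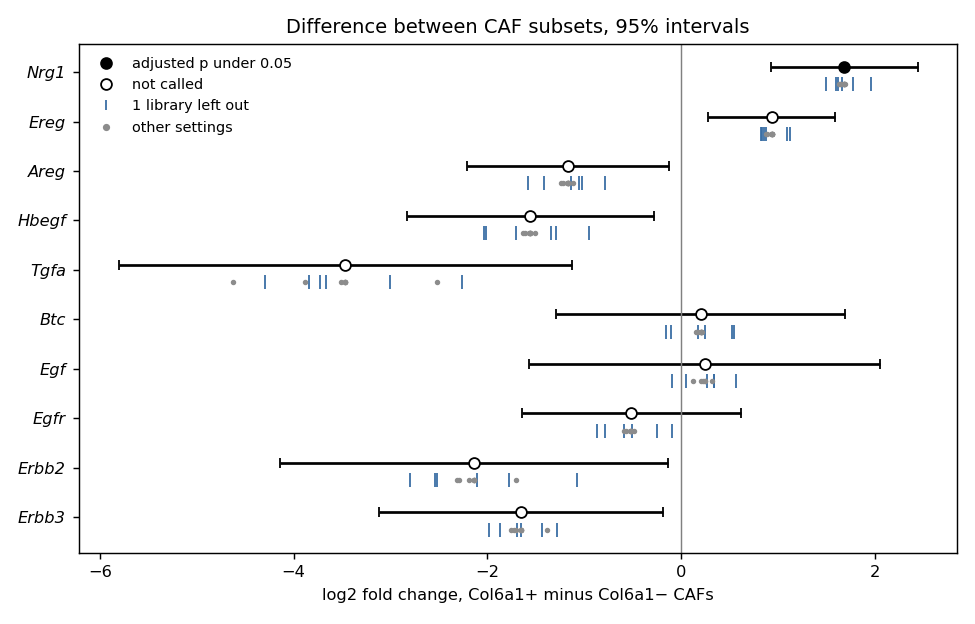
Log2 fold changes (Col6a1+ minus Col6a1- CAFs, horizontal axis) of the 10 genes with 95% limma intervals, with the estimates when 1 library was left out (ticks) and under other settings (dots) beneath. *Nrg1* at 1.69 is the filled point, and the intervals of *Btc*, *Egf* and *Egfr* span 0.

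The receptors were at lower mean levels in Col6a1+ CAFs, and none of the 3 passed the test. *Egfr* (ENSMUSG00000020122, chromosome 11 from 16752203 to 16918158, plus strand), the receptor of the EGFR ligands, had 33, 99 and 67 normalized counts in Col6a1+ CAFs and 59, 88 and 125 in Col6a1- CAFs. These levels overlapped widely (66.3 ± 33.0 and 90.7 ± 33.1, SD, n = 3 each), with a log2 fold change of -0.51 and a 95% interval of -1.64 to 0.62 (limma adjusted p = 0.642). *Erbb2* (ENSMUSG00000062312, chromosome 11 from 98412470 to 98437716, plus strand), the ligandless partner receptor, had 2, 22 and 32 normalized counts in Col6a1+ CAFs and 33, 94 and 59 in Col6a1- CAFs. The groups did not overlap by a margin of 1 normalized count, with a log2 fold change of -2.14 and a 95% interval of -4.14 to -0.13 (SE 0.91, limma adjusted p = 0.271). Leaving out Col6a1+ replicate 1 gave -1.07, and leaving out Col6a1+ replicate 3 gave -2.80. The gene *Mien1* overlaps *Erbb2* on the other strand and had 142 to 280 normalized counts, so the counts of *Erbb2* are uncertain. *Erbb3* (ENSMUSG00000018166, chromosome 10 from 128567523 to 128589652, minus strand), the neuregulin receptor, had 20, 13 and 7 normalized counts in Col6a1+ CAFs and 30, 41 and 55 in Col6a1- CAFs. Its means were 13.3 ± 6.51 and 42.0 ± 12.5 (SD, n = 3 each), without overlap, at a log2 fold change of -1.65 with a 95% interval of -3.12 to -0.19 (SE 0.66, limma adjusted p = 0.236). Thus the ligand *Nrg1* and its receptor *Erbb3* had opposite signs between the subsets, of which that of *Erbb3* did not pass the test.

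The genes *Areg*, *Hbegf*, *Tgfa*, *Erbb2* and *Erbb3* had unadjusted p-values of 0.00783 to 0.0388 with lower levels in Col6a1+ CAFs by more than 2-fold, which 8.61% of all genes tested also had (6.09% in the other direction, where *Nrg1* stood alone). Between the subsets they shared the direction of the epithelial markers, whose median log2 fold change was -2.15. Per 1000 summed epithelial marker counts, *Tgfa* had 0, 1.13 and 2.21 in Col6a1+ CAFs and 1.82, 1.14 and 4.05 in Col6a1- CAFs. On the same scale *Erbb3* had 3.18, 1.83 and 0.967 against 1.36, 1.06 and 2.00, and *Erbb2* 0.318, 3.10 and 4.42 against 1.50, 2.43 and 2.15. *Hbegf* had 7.15 to 28.4 against 7.26 to 16.5, and *Areg* 5.66 to 20.2 against 5.04 to 6.82. The groups overlapped for all 5 genes on this scale, on which the higher epithelial sums of Col6a1- CAFs shift every gene toward Col6a1+ CAFs. Per 1000 summed pan-fibroblast marker counts, a scale that shifts every gene the other way, these 5 genes and also *Ereg*, *Egf* and *Egfr* were higher in each Col6a1- library. *Egfr* had 5.24 to 13.9 per 1000 epithelial marker counts in Col6a1+ CAFs and 2.28 to 4.56 in Col6a1- CAFs, without overlap. The immune sums moved in the same direction as the 5 genes, and so did the trophocyte markers, with log2 fold changes below 0 for 7 of 7 and a median of -1.80. The part of any of these cell types in the levels of the 5 genes was not tested.

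**Figure D4:**
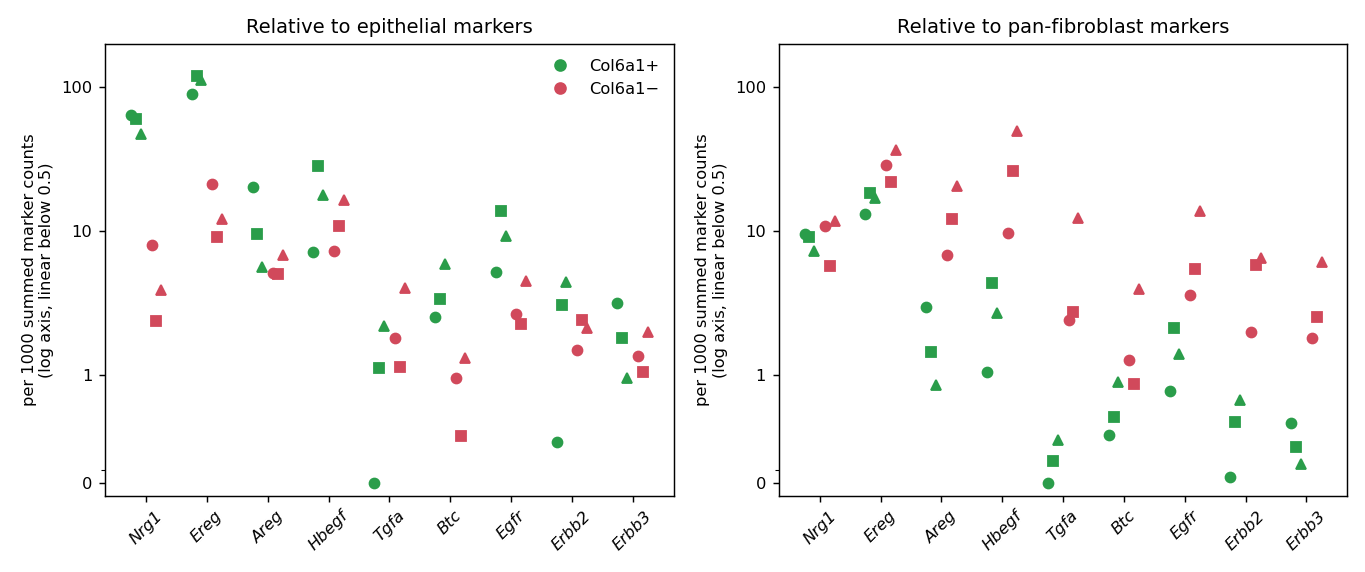
Levels of 9 of the genes per 1000 summed counts of the epithelial markers (left) or the pan-fibroblast markers (right), on log axes that are linear below 0.5, in the 3 libraries of each subset. On the left the groups overlap for *Areg*, *Hbegf*, *Tgfa*, *Erbb2* and *Erbb3*, and on the right *Nrg1* overlaps at 7.27 to 9.54 against 5.79 to 11.8.

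The remaining genes of the family were at the edge of detection. *Epgn* (epigen, an EGFR ligand) had 0, 2 and 4 normalized counts in Col6a1+ CAFs and 0 in each Col6a1- CAF library. *Nrg2* had 6 in Col6a1+ replicate 2 and 0 elsewhere, and *Nrg3* had 1 in Col6a1- replicate 1 and 0 elsewhere. *Nrg4* was at 0 in all 6 libraries. A single 0, taken alone, allows an expected count of up to about 3. *Erbb4*, the other neuregulin receptor, had 4 normalized counts in Col6a1- replicate 3 and 0 in the others. Of these 5 genes 4 were tested and none was called.

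Among 12 genes of ligand shedding, 2 were called, both lower in Col6a1+ CAFs, and the median log2 fold change was 0.51. *Adam10*, the main sheddase of betacellulin and EGF, had 106, 110 and 100 normalized counts in Col6a1+ CAFs and 299, 226 and 245 in Col6a1- CAFs (log2 fold change -1.27, SE 0.32, limma adjusted p = 0.0488). *Adam8*, a metalloprotease best known from leukocytes, had 2, 17 and 1 against 93, 71 and 64 (log2 fold change -3.997, SE 0.89, limma adjusted p = 0.0311). *Adam17*, the main sheddase of amphiregulin, epiregulin, HB-EGF and TGFα, had 908, 322 and 347 against 419, 440 and 425 normalized counts, and these groups overlapped. Its inhibitor *Timp3* had 1147, 1612 and 1383 against 724, 789 and 584 without overlap, at a limma adjusted p of 0.0745. *Rhbdf2*, which encodes a partner of ADAM17 (iRhom2), had 44, 53 and 47 against 7, 15 and 28 at a limma adjusted p of 0.221. Among the other ADAM genes, *Adam9* had 97, 71 and 103 against 46, 29 and 25 (limma adjusted p = 0.120). *Adam19* had 28, 132 and 302 against 9, 16 and 16 (limma adjusted p = 0.0716). Both were higher in Col6a1+ CAFs without overlap and did not pass.

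Of 19 measured genes that restrain ERBB receptors or the cascade below them, 2 were called, both higher in Col6a1+ CAFs, and the median log2 fold change was 0.74. They were the Sprouty genes *Spry1*, with 202, 109 and 217 normalized counts against 27, 33 and 50, and *Spry4*, with 566, 125 and 125 against 23, 42 and 25. Their log2 fold changes were 2.22 and 2.80 (SEs 0.45 and 0.60, limma adjusted p = 0.0200 and 0.0266). *Spry2* had 2381, 963 and 892 against 473, 589 and 343 without overlap and did not pass (limma adjusted p = 0.0687). *Cblc* went the other way, with 0, 29 and 11 against 40, 134 and 108, and did not pass (log2 fold change -3.57, limma adjusted p = 0.115). Without overlap, 6 of the 19 genes were higher in Col6a1+ CAFs and 2, *Cblc* and *Socs4*, were lower. Overlap was absent for 31.7% of all genes averaging 10 or more normalized counts. *Errfi1*, a direct inhibitor of the EGFR kinase, had 145, 421 and 403 against 282, 471 and 395 and overlapped. *Lrig1*, a transmembrane inhibitor that also marks intestinal stem cells, had 228, 130 and 79 against 130, 60 and 58 and overlapped as well.

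The 24 adaptor and kinase genes had a median log2 fold change of 0.03, and 1 was called. *Pik3r1*, the regulatory subunit p85α of phosphoinositide 3-kinase, had 353, 434 and 594 normalized counts in Col6a1+ CAFs and 104, 121 and 152 in Col6a1- CAFs (log2 fold change 1.85, SE 0.33, limma adjusted p = 0.0115). *Grb2*, the adaptor that links the receptors to Ras, had 174 to 281 against 222 to 279 normalized counts, and the groups overlapped. Of 16 genes known to respond to ERK signals, 2 were called, both lower in Col6a1+ CAFs, at a list median of 0.32. *Etv5*, an ETS transcription factor, had 39, 66 and 89 against 350, 272 and 502 (log2 fold change -2.55, SE 0.41, limma adjusted p = 0.00670). *Dusp6*, a phosphatase of ERK, had 589, 663 and 465 against 1225, 1682 and 1291 (log2 fold change -1.29, SE 0.28, limma adjusted p = 0.0263). The immediate early gene *Egr1* had 3304, 5848 and 3408 against 3022, 3065 and 2413 and did not pass. The called genes of the ERK response and brake lists differed in sign, with *Etv5* and *Dusp6* lower and *Spry1* and *Spry4* higher in Col6a1+ CAFs. The part of epithelial or other cells in the levels of the pathway genes was not tested.

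These 7 calls stand against background shares of 2.66% higher and 1.96% lower over all genes tested. Apart from *Spred3*, the measured genes of these pathway lists averaged 10 or more normalized counts, and 8.82% of all such genes were called. The 7 calls are not far above this share. In the blocked fit over all genes tested, their limma adjusted p-values ran from 0.0612 (*Pik3r1*) to 0.147 (*Spry4*). There 0.0612 was the smallest of any gene, and none was called. *Adam10* and *Dusp6* were called in none of the 6 fits that left out 1 library, *Adam8*, *Spry1*, *Spry4* and *Pik3r1* in 1 each, and *Etv5* in 3, with the sign of each unchanged in all 6.

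**Figure D5:**
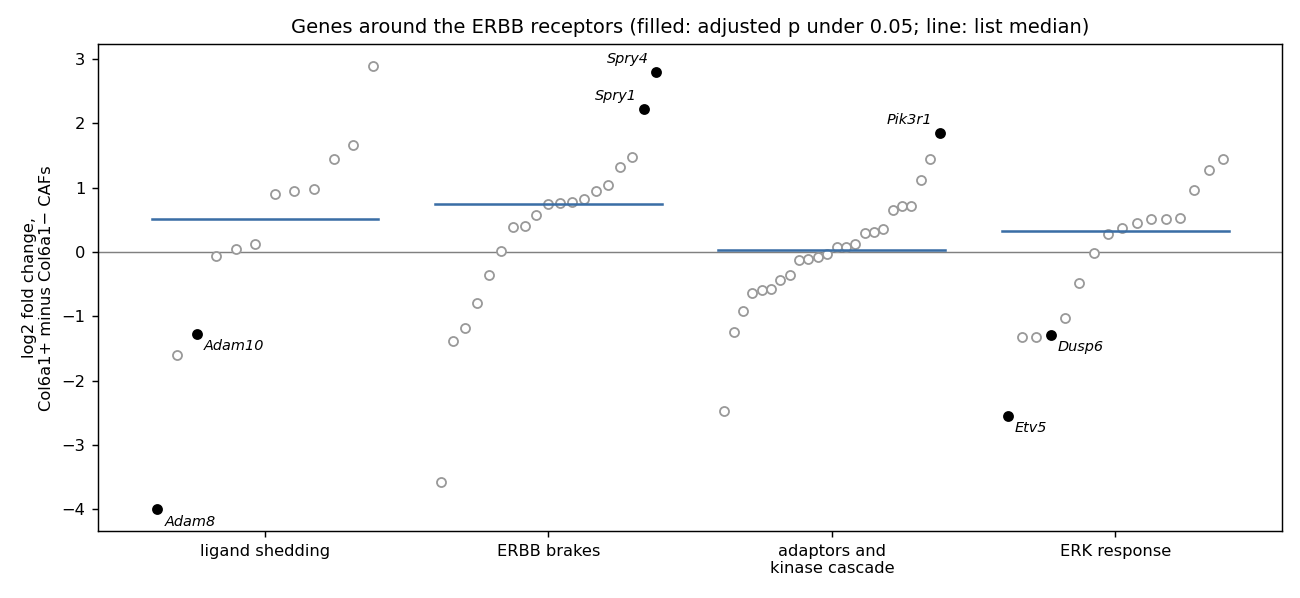
Log2 fold changes (vertical axis, Col6a1+ minus Col6a1- CAFs) of the genes of 4 pathway lists, 1 circle per gene, with filled circles for an adjusted p under 0.05 and a line at each list's median. *Spry1*, *Spry4* and *Pik3r1* are called above 0 and *Adam8*, *Adam10*, *Etv5* and *Dusp6* below it.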

How the data were processed

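3′ mRNA libraries (QuantSeq, Ion Proton) were made from RNA of 3 Col6a1+ and 3 Col6a1- CAF samples. Groups and replicate numbers come from the labels. The authors mapped reads to mm10 with TopHat2 and Bowtie2, counted reads in genes and scaled them with DESeq through metaseqR. Their deposited values are the log2 of the normalized count plus 1, and all are log2 of whole numbers (within 1e-06). The deposited table also holds the authors' DESeq p-values, false discovery rates and fold changes and 6 further per-sample columns of counts per gene model, none of which was used. Depth in reads is unknown, since the counts were scaled and rounded.

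The log2 values were used as deposited (pseudocount 1). A limma 3.58.1 model of the 2 groups (R 4.3.3, mean-variance trend, prior degrees of freedom 6.48, residual 4) was run on the 26402 genes whose normalized counts added up to 1 or more, with Benjamini-Hochberg adjustment over all of them, two-sided, and genes were called at an adjusted p under 0.05. Marker sums, ratios and promoter motifs were computed with Python 3.11.15, pandas 2.3.3 and NumPy 2.4.6, and plots drawn with Matplotlib 3.10.9. Between genes, levels were set against each other only in ratios and sums, and genes with many counts weigh most in the sums. The genes, the pathway and marker lists and the tests were chosen with earlier results of these data known, and the ratios after their values were seen. Beyond the 10 genes and the rest of their family, the rule named the genes called in a list (at most 4 a list, by p) and the first 3 markers of each, of which not all are printed. Named outside it are *Adam17*, *Timp3*, *Rhbdf2*, *Spry2*, *Errfi1*, *Lrig1*, *Grb2* and *Egr1*, chosen for their roles after their values were seen. *Adam9*, *Adam19*, *Cblc* and *Socs4* are also outside it and were chosen for their values. *Spry3* had no row in the table, and *Itgam* had 2.

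Over the 13515 genes averaging 10 or more, deviations from the group means correlated at 0.245, 0.125 and 0.144 between same-numbered libraries and at -0.245 to 0.150 between others. The highest of the others, 0.150, lay above 0.125 and 0.144, so the correlations do not settle the pairing. The study describes 3 samples, each a pool of tumors, so the numbers may be pairs, which the sources used here do not state. The main test has no block and ignores any pairing, and the blocked fits are given beside it. Nothing else says that the libraries of a group are independent beyond their separate pools, and p-values measure the spread between them. Alternatives were library size alone, mean and minimum filters of 10 normalized counts, no filter, pseudocounts of 0.1 and 5, limma-voom, the block, leaving out each library (with the filter applied anew) and unadjusted p-values.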

Additional observations from a re-analysis of the deposited data

How the results depend on the processing

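*Nrg1* was the only one of the 10 genes called higher, in the test and with library size alone, both filters of 10 normalized counts, pseudocounts of 0.1 and 5, limma-voom, the block over the genes averaging 10 or more, and the unadjusted criterion (p under 0.05, more than 2-fold). With no filter, with the replicate block over all genes tested and in each fit that left out 1 library, the number called higher was 0, and the adjusted p of *Nrg1* was 0.122 with no filter and ranged from 0.0111 to 0.144 over its alternatives. The cause of these lost calls was not tested. No gene of the 10 was called lower, except 2 (*Hbegf* and *Tgfa*) with the block over the genes averaging 10 or more and 5 (*Areg*, *Hbegf*, *Tgfa*, *Erbb2* and *Erbb3*) by the unadjusted criterion, which 8.61% of all genes tested passed in this direction. *Btc* had a log2 fold change of -0.16 without Col6a1+ replicate 3 and -0.10 without Col6a1- replicate 2, and *Egf* -0.10 without Col6a1+ replicate 3, in place of 0.20 and 0.25. Leaving out 1 library gave at most 0.55 (*Btc*) and 0.56 (*Egf*). No other sign turned.

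Over all genes, 703 were called higher and 517 lower in the test, 21 and 7 with no filter (which adds genes at 0 in every library), 716 and 628 with library size alone, 561 and 336 with a pseudocount of 0.1, 804 and 1006 with limma-voom, 0 and 0 with the replicate block (4418 genes at an unadjusted p under 0.05), 981 and 871 with the block over the genes averaging 10 or more, and 1607 and 2273 by the unadjusted criterion. Leaving out 1 library gave 11 to 453 genes higher and 1 to 442 lower, the fewest without Col6a1- replicate 1. The 7 pathway genes called (3 higher, 4 lower) became 0 and 0 with no filter, with the block over all genes, and without each Col6a1- library, and 9 and 5 with the block over the genes averaging 10 or more. The block changed no call among the 10 genes other than those named. *Egf*, *Epgn*, *Nrg2*, *Nrg3*, *Nrg4* and *Erbb4* had too few counts for a difference to be resolved. Absence of a transcript and low depth cannot be told apart here.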

Other observations

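For the 7 genes with an unadjusted p under 0.05, the genes with the most similar log2 levels over the 6 libraries were looked up among the other 13514 genes averaging 10 or more normalized counts, by Pearson correlation. With 6 points that also differ by group, high values are common, and between 45 (*Areg*) and 387 (*Erbb2*) genes exceeded 0.95 for each of them. Nearest to *Nrg1* were *Gucy1a3*, a subunit of the nitric oxide receptor, *Plekhf1* and *Map1a* (r of 0.994, 0.993 and 0.992). Nearest to *Ereg* were *Gm44891*, *Gadd45b* and *Bace1* (0.988, 0.987 and 0.987), and nearest to *Areg* were *Sptlc1*, *Hnrnpf* and the stress-response factor *Ddit3* (0.990, 0.985 and 0.983). *Hbegf* was followed by *Nphs1*, *Cgnl1* and *Rn7sk* (0.996, 0.995 and 0.995), *Tgfa* by *Kif15*, *Ptpre* and *Tmem44* (0.998, 0.997 and 0.996), *Erbb2* by *Brca2*, *Ercc4* and *Sprr1a* (0.997, 0.996 and 0.996), and *Erbb3* by *Rps9*, *B4galt3* and *Bag4* (0.991, 0.991 and 0.988). Col6a1+ replicate 1, the library with the fewest genes detected, had the lowest level of the 6 libraries for *Hbegf*, *Tgfa*, *Egfr* and *Erbb2* and the highest of the 3 Col6a1+ libraries for *Areg* and *Erbb3*.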
